A study of Mus musculus with 31 samples.

Results

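The BCL-2 family genes decide, through the balance of their proteins at the outer membrane of the mitochondrion, whether a stressed cell undergoes apoptosis. The members described here were 3 pro-survival genes (Bcl2, Bcl2l1 and Mcl1), 5 BH3-only genes (Bcl2l11, Pmaip1, Bbc3, Bmf and Bid) and 2 effector genes (Bax and Bak1). They were taken by gene symbol from the deposited counts, where each symbol matched 1 gene, and made up 10 of the 39179 genes.

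Pro-survival members hold the effectors and the BH3-only proteins in check, BH3-only proteins relay stress and growth factor loss to them, and active BAX or BAK opens the membrane so that cytochrome c leaves and caspases are switched on. Glucocorticoids (GC) are steroids that act through the glucocorticoid receptor (GR, encoded by Nr3c1), and in lymphoid cells they are known to induce the BH3-only gene Bcl2l11 before those cells die. In some epithelial cells GC are instead known to raise Bcl2l1, and melanoma cells lean on Mcl1 and Bcl2l1 for survival.

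The study asked how a topical GC acts on melanoma through GR in the tumor cells and through GR in the host. Transcript 3′ ends were counted by QuantSeq in 31 mouse libraries of 8 groups. The tumors came from a C57BL/6 melanoma line with an Nras G12D allele behind a lox-stop-lox cassette and a CreERT2 driven by the tyrosinase promoter, injected into the skin of wild-type C57BL/6 mice. Parental tumors and tumors of a GR KO line were each treated with a control cream or with clobetasol propionate 0.05% ointment, a potent GC, 3 times per week. Each of these 4 groups held 5 tumors, and the study's captions give 4 to 5 mice a group. Cultures of the same lines were given DMSO or clobetasol, with 3 cultures a group and 2 for parental cells with GC; the clobetasol dose of the cultures stands as 10 µM in 1 label field, the default in the study's methods, and as 1 µM in the library names and the design notes. The GR KO line was a single-cell clone made with Cas9 protein and a guide against Nr3c1, so clone and genotype cannot be told apart, and the host cells of GR KO tumors still had GR. For treated cultures the study's methods give 48 hours, while age of the mice and time of tumor harvest were not given in the sources used here.

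Reads on genes ranged from 15528066 to 26386770 in tumors and from 14441166 to 22463188 in cultures. A floor of 3 counts, the upper limit that a count of 0 allows, stood at 0.114 to 0.193 CPM (read counts scaled to library depth) in tumors and at 0.134 to 0.208 CPM in cultures. Floors cover counting error only, while the intervals given with fold changes also include the spread between samples. A read marks 1 transcript end in this assay, so CPM of different genes were set side by side without dividing by length. Tumors are bulk tissue, in which fewer cells of a type and less RNA per cell cannot be told apart. The library names of all 11 cultures carry 1 date with the letters A to C, and nothing in the labels says that the cultures of a group came from independent experiments, so their p-values measure the spread between these samples.

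In 6 tumors at least 5% of all reads fell on Gm26924, a gene known here only by its symbol. These were GR KO control tumors 1, 2, 3 and 5 (11.6, 8.97, 6.57 and 16.3%), parental control tumor 1 (5.55%) and GR KO GC tumor 4 (6.65%), while GR KO control tumor 4 had 0.248%. The same 6 tumors had the fewest genes with more than 3 counts, 12897 to 14916 against 14938 to 15942 in the other tumors. Comparisons that use GR KO control tumors therefore rest mostly on such libraries, and for several members values are also given without the 6 tumors. Without them that group holds 1 tumor, which is then assumed to vary like the other groups. Of the genes from the lists described further below, 6 were called between control tumors of both lines and 20 with GC in tumors of the GR KO line; without the 6 tumors each kept its direction and none stayed called by edgeR.

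Nr3c1 itself was measured at 54.6 ± 6.78 CPM (SD) in parental control tumors, 42.6 ± 11.8 with GC, 27.0 ± 4.87 in GR KO control tumors and 41.9 ± 14.6 with GC. Cultures had 32.9 ± 2.82 CPM in parental DMSO, 36.5 ± 4.33 in parental GC, 20.7 ± 4.24 in GR KO DMSO and 18.8 ± 5.03 in GR KO GC cells. Across single tumors the level ran from 44.9 to 63.4, 24.4 to 53.4, 20.7 to 31.8 and 21.7 to 58.0 CPM in the same order, and across cultures from 30.0 to 35.6, 33.4 to 39.5, 16.4 to 24.8 and 13.1 to 22.5 CPM. All GR KO cultures lay below all parental cultures, and the reason was not tested. A 3′ tag outside the edited site still counts edited transcripts, so these levels cannot tell whether the receptor was lost.

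Of the 7 melanocyte lineage markers, Sox10, Dct, Tyr and Mlana were at 0 in all 11 cultures and Tyrp1 and Pmel reached at most 4 and 8 counts. Mitf, the lineage's master transcription factor, was present at 10.2 CPM in parental DMSO and 10.6 CPM in parental GC cells, and at 3.96 and 5.25 CPM in GR KO DMSO and GC cells. Of these markers Mitf alone was above 8 counts in any culture, and Tyr was at 0 in the tumors as well.

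Bcl2, the founding pro-survival gene (ENSMUSG00000057329), lies at chr1:106538178-106714274 of GRCm38. Bcl2l1, which encodes BCL-XL (ENSMUSG00000007659), lies at chr2:152780668-152831728 and Mcl1, whose protein turns over fast (ENSMUSG00000038612), at chr3:95658788-95663176. Among the BH3-only genes, Bcl2l11 encodes BIM (ENSMUSG00000027381, chr2:128126038-128162547), Pmaip1 encodes NOXA, which binds MCL1 by preference (ENSMUSG00000024521, chr18:66458533-66465565), and Bbc3 encodes PUMA, a p53 target (ENSMUSG00000002083, chr7:16308393-16318205). Bmf (ENSMUSG00000040093, chr2:118528757-118549687) and Bid, which caspase-8 cleaves (ENSMUSG00000004446, chr6:120891930-120916853), complete that class. The pore-forming effectors Bax (ENSMUSG00000003873) and Bak1 (ENSMUSG00000057789) lie at chr7:45461697-45466898 and chr17:27019810-27029009. The strand setting of the counting was not given in the sources used here. Bid overlaps Bcl2l13 on the opposite strand (chr6:120836212-120892842) at the 3′ ends of both genes, and Bak1 lies within the opposite-strand gene Ggnbp1, so levels of Bid and Bak1 may include reads of these neighbors. Over all libraries Bcl2l13 had 8076 reads beside 5970 for Bid, and Ggnbp1 had 1468 beside 66519 for Bak1.

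In parental control tumors Mcl1 was the most abundant member at 249 ± 42.7 CPM (SD, n = 5), and its 5 tumors (194 to 305 CPM) lay above every value of the next genes. Bak1 (121 ± 20.1 CPM) and Bcl2l1 (106 ± 8.48 CPM) followed with overlapping ranges. Bax (66.9 ± 26.6), Bcl2 (59.0 ± 12.0) and Bcl2l11 (55.4 ± 15.7 CPM) formed a middle tier whose neighbors also overlapped. The low tier held only BH3-only genes, with Bid at 9.68 ± 3.11, Pmaip1 at 6.50 ± 2.41, Bbc3 at 4.85 ± 1.95 and Bmf at 2.39 ± 0.854 CPM, each overlapping the next. Bmf was the lowest member in all 8 groups. Parental tumors with GC had Bcl2l1 (194 ± 78.8 CPM) before Mcl1 (182 ± 46.7 CPM), with overlapping values, whereas in both GR KO tumor groups Mcl1 had the highest mean and Bcl2l1 the next. There Bcl2l1 overlapped Bak1 in both groups and Mcl1 in control tumors.

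Parental DMSO cultures had Bcl2l1 (131 ± 20.8 CPM), Bak1 (115 ± 33.4 CPM) and Mcl1 (111 ± 7.23 CPM) at the top without a gap between neighbors. Bax stood at 55.5 ± 34.9 CPM there, Bcl2 at 24.8 ± 2.85 CPM and Bcl2l11 at 19.6 ± 1.51 CPM, with no overlap between these 3 genes. Bbc3 (10.4 ± 1.92 CPM) and Bid (9.37 ± 4.22 CPM) overlapped, Pmaip1 had 1.39 ± 1.05 CPM, and Bmf had 0, 5 and 6 reads in the 3 cultures.

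**Figure D1:**
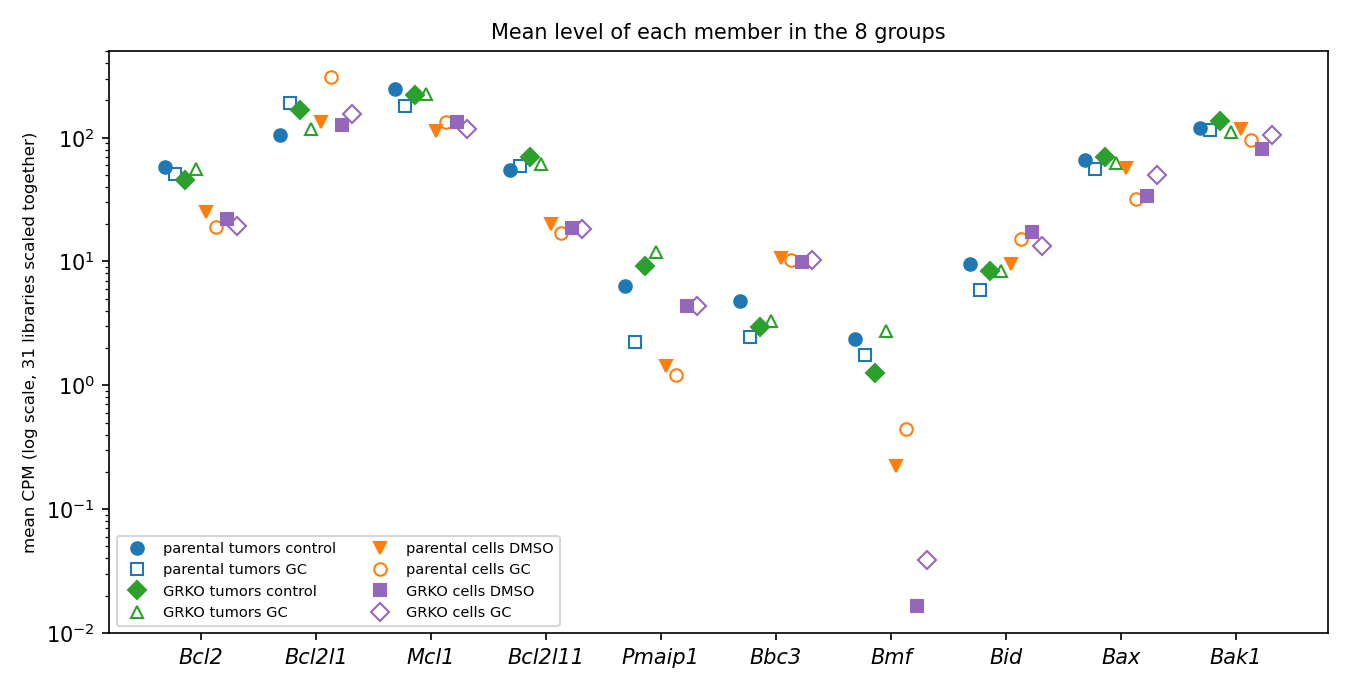
Mean CPM of each member in the 8 groups, with all 31 libraries scaled together and a log axis. Pro-survival genes and effectors sit in the upper part in every group, and Pmaip1, Bbc3, Bmf and Bid in the lower part.

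The first comparison, GC against control in parental tumors, asks what the ointment does where both tumor and host cells carry GR. Bcl2l1 was higher with GC and Pmaip1 lower, a pro-survival gene and a BH3-only gene moving in opposite directions, but neither passed the test that all genes were held to. That test was edgeR's quasi-likelihood test with Benjamini-Hochberg adjustment over all genes tested, and a gene was called at an adjusted p under 0.05 and a fold change of at least 1.5. It called 0 of the 10 members, against 0.779% of the 15919 genes tested. At an unadjusted p under 0.05 edgeR had 3 members (14.1% of all genes), and DESeq2 called 2 (2.36% of all genes). On simulated data for this comparison 19 of 160 DESeq2 calls were false, beside 6 of 137 by edgeR. Those data were drawn with edgeR's own estimates of level and spread, which can favor edgeR. DESeq2 is the tool that the study's methods name for this test. Calls made by only 1 of the tools, here and below, are to be read with care. The median log2 fold change of the members was -0.35, beside 0.00 over all genes, and 8 of the 10 had a lower mean with GC.

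Bcl2l1 was measured at 121, 99.996, 106, 100.3 and 104 CPM in parental control tumors 1 to 5, and at 132, 229, 139, 316 and 153 CPM in GC tumors 1 to 5. All 5 GC tumors lay above all 5 control tumors, with GC tumors 2 and 4 the highest. No other member was separated in this way, while 4.21% of all genes were. The log2 fold change was 0.87 (SE 0.23, 95% interval 0.42 to 1.32) with an edgeR adjusted p of 0.0749, and DESeq2 gave an adjusted p of 0.0152. Without GC tumor 1 edgeR called it (0.98, adjusted p 0.0400), and without GC tumor 4 the value was 0.62. The summed macrophage markers were also highest in GC tumors 2 and 4, at 8119 and 8466 CPM against 3404 to 5803 CPM in the other 3. C1qa (mean 3140 CPM) and C1qb (2037 CPM) led that sum. With GC in parental tumors 3 of the 6 markers were higher and 0 were called by edgeR, while C1qc (-0.45), Cd68 (-0.38) and Adgre1 (-0.06) were lower. GC tumors 2 and 4 differed from the other 3 as whole libraries too. The mean chi-square between libraries was 28.2 to 31.6 among GC tumors 1, 3 and 5 and 108 to 214 in pairs with tumor 2 or 4. Pairs of parental control tumors had 51.0 to 193, so it was the likeness of GC tumors 1, 3 and 5 that differed from the control group. The part of the macrophage markers and of these library differences in the Bcl2l1 result was not tested.

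Pmaip1 was measured at 6.62, 3.36, 9.26, 4.92 and 8.31 CPM in control tumors 1 to 5 and at 2.45, 3.93, 2.21, 1.82 and 0.912 CPM in GC tumors 1 to 5. GC tumors were low and control tumors high, and the groups overlapped only through GC tumor 2, which lay above control tumor 2. The log2 fold change was -1.52 (SE 0.37, 95% interval -2.25 to -0.79), with an adjusted p of 0.0528 from edgeR and 0.00390 from DESeq2. It was called by edgeR without control tumor 2 (-1.68, adjusted p 0.0268) and without GC tumor 2 (-1.81, adjusted p 0.0313). Without GC tumor 5 the value was -1.32. Neutrophil markers differed in the same comparison: their summed level was 22.7, 67.5, 244, 32.9 and 1277 CPM in control tumors and 14.6, 10.1, 11.1, 22.6 and 38.8 CPM in GC tumors, with S100a8 the most abundant in every control tumor. Of the 5 neutrophil markers S100a9 (-5.03) and S100a8 (-3.96) fell on the log2 scale, and their part in the Pmaip1 result was not tested.

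Among the other members Mcl1 had a log2 fold change of -0.46 (SE 0.21), from 249 ± 42.7 to 182 ± 46.7 CPM, with an unadjusted p of 0.0369 and an edgeR adjusted p of 0.317. Bbc3 (-0.98, SE 0.56), Bid (-0.70, SE 0.37), Bmf (-0.45, SE 0.71), Bax (-0.25, SE 0.28), Bcl2 (-0.20, SE 0.19) and Bak1 (-0.06, SE 0.21) had lower means with GC, none of them past the threshold. Bcl2l11, the member best known as a GC target in lymphoid cells, had a log2 fold change of 0.11 (SE 0.26), with 55.4 ± 15.7 CPM in control and 59.7 ± 19.7 CPM in GC tumors.

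**Figure D2:**
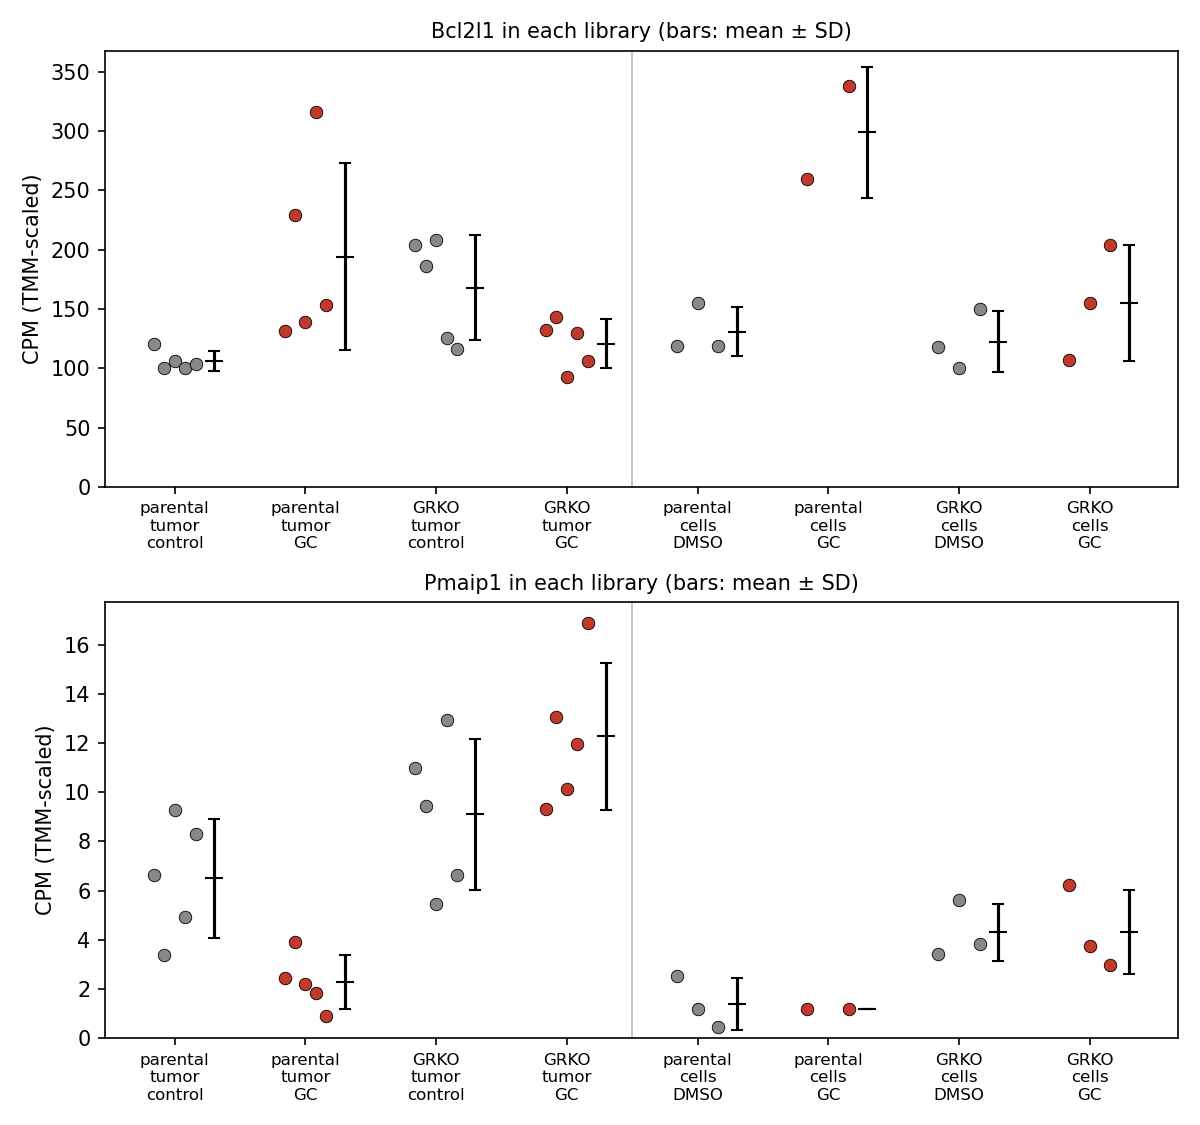
Bcl2l1 and Pmaip1 in each library, as CPM on a linear axis, for the 8 groups; points are libraries and bars the mean with its SD. Bcl2l1 was 132 to 316 CPM in parental GC tumors above 99.996 to 121 CPM in their controls, and Pmaip1 was 9.32 to 16.9 CPM in GR KO GC tumors above 0.912 to 3.93 CPM in parental GC tumors.

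The same treatment in GR KO tumors asks what remains when only the host cells respond through GR. With all tumors in the fit Bcl2l1 and Pmaip1 pointed the other way from parental tumors, and no member was called. edgeR called 0 of 10 members although it called 6.42% of all genes here, and 1 member had an unadjusted p under 0.05 (24.5% of all genes). DESeq2 also called 0 members, beside 11% of all genes. The median log2 fold change was 0.07 over the members and 0.05 over all genes.

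Bcl2l1 was at 204, 186, 208, 126 and 116 CPM in GR KO control tumors 1 to 5 and at 133, 143, 92.6, 130.0 and 106 CPM in GC tumors 1 to 5. Control tumors 1 to 3 were high, while 4 and 5 fell within the GC range. On the log2 scale the change was -0.48 (SE 0.23) with an edgeR adjusted p of 0.201. Leaving out the tumors with at least 5% of reads on Gm26924, chosen after seeing the data, moved it to -0.09 (adjusted p 0.987). Pmaip1 was at 10.99, 9.44, 5.47, 12.9 and 6.64 CPM in control and at 9.32, 13.0, 10.1, 12.0 and 16.9 CPM in GC tumors. These groups overlapped widely, with a log2 fold change of 0.43 (SE 0.36, edgeR adjusted p 0.485), or -0.08 without the tumors high in Gm26924.

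Bmf had the widest interval in GR KO tumors, with a log2 fold change of 1.20 (SE 0.72, edgeR adjusted p 0.312) from counts of 1, 20, 27, 67 and 7 in control and 41, 41, 40, 41 and 137 in GC tumors, and 0.21 without the tumors high in Gm26924. Bcl2 stood at 0.34 (SE 0.19), from 45.3 ± 9.47 to 57.2 ± 11.1 CPM. Bbc3 (0.19), Mcl1 (0.07), Bid (0.07), Bax (-0.14), Bcl2l11 (-0.15) and Bak1 (-0.26) made up the rest, none of them called.

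Whether the GC effect differed between parental and GR KO tumors was tested directly, as the parental log2 fold change minus that of GR KO tumors in the fit of all 20 tumors. Bcl2l1 had the clearest positive difference and Pmaip1 the clearest negative one. By edgeR 0 of 10 members were called, beside 0.195% of all genes, with 2 members at an unadjusted p under 0.05 (20.1% of all genes). DESeq2 called both Bcl2l1 and Pmaip1, beside 4.92% of all genes. The members' median was -0.53 against -0.04 over all genes.

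For Bcl2l1 the difference was 1.35 (SE 0.32, 95% interval 0.71 to 1.98), with an adjusted p of 0.0790 from edgeR and 0.00692 from DESeq2. For Pmaip1 it was -1.95 (SE 0.51, 95% interval -2.96 to -0.94), with an adjusted p of 0.0843 from edgeR and 0.0139 from DESeq2. Every parental GC tumor stood above the parental control mean for Bcl2l1 and below it for Pmaip1. Without GR KO control tumor 4 edgeR called both (Bcl2l1 1.43, adjusted p 0.0221, and Pmaip1 -2.12, adjusted p 0.0266). That fit called 1284 genes in all, against 31 with every tumor, and its GR KO control tumors were all high in Gm26924. Without parental GC tumor 3 edgeR called Bcl2l1 (1.44, adjusted p 0.0465). Among fits that left out 1 tumor, the smallest differences were 1.10 for Bcl2l1 (without parental GC tumor 4) and -1.75 for Pmaip1 (without parental GC tumor 5). Without the 6 tumors high in Gm26924 the differences were 1.02 (adjusted p 0.829) and -1.42 (adjusted p 0.851). The other BH3-only genes Bmf (-1.65), Bbc3 (-1.18), Bid (-0.77) and Bcl2l11 (0.26), the pro-survival genes Bcl2 (-0.54) and Mcl1 (-0.53) and the effectors Bax (-0.11) and Bak1 (0.20) had edgeR adjusted p-values from 0.263 upward.

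Untreated by GC, GR KO and parental control tumors were compared to see how the clone differed at baseline. Bcl2l1 was higher in GR KO control tumors, at 168 ± 43.9 against 106 ± 8.48 CPM, but was not called. edgeR called 0 of 10 members, beside 2.25% of all genes, with 1 member at an unadjusted p under 0.05 (19.98% of all genes), and DESeq2 called 0 (6.29% of all genes). The median was -0.05 over members and -0.04 over all genes.

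Bcl2l1 in GR KO control tumors 1 to 3 exceeded every parental control tumor, tumor 4 did so narrowly at 126 against 121 CPM, and tumor 5 lay within the parental range. The log2 fold change was 0.66 (SE 0.23, edgeR adjusted p 0.114), and it was called by edgeR without GR KO control tumor 4 (0.75, adjusted p 0.0409). That fit called 1762 genes in all, against 358 with every tumor, and its GR KO control tumors were all high in Gm26924. Without the tumors high in Gm26924 the Bcl2l1 value was 0.31. Pmaip1 had 9.09 ± 3.07 CPM against 6.50 ± 2.41 CPM, a log2 fold change of 0.49 (SE 0.36, edgeR adjusted p 0.462) with overlapping groups, and without the same tumors it was 1.02 (adjusted p 0.944), while Bmf was then at 0.04. Bmf (-0.95), Bbc3 (-0.72), Bcl2 (-0.38), Bid (-0.23), Mcl1 (-0.17), Bax (0.08), Bak1 (0.17) and Bcl2l11 (0.34) were not called either. Macrophage marker sums, led by C1qa, were 5201, 5210.5, 4124, 4668 and 3723 CPM in parental and 9076, 7855, 5622, 6435 and 6424 CPM in GR KO control tumors, with 0 of the 6 markers called by edgeR, and their part in the Bcl2l1 level was not tested.

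With GC in both, GR KO and parental tumors gave the 1 call of a member by edgeR in any comparison among tumors or among cultures: Pmaip1, the NOXA gene, was higher in GR KO tumors. Called members were 1 of 10 by edgeR, against 0.634% of all genes, and the same 1 by DESeq2, against 1.84% of all genes. At an unadjusted p under 0.05 there were 2 members (11.4% of all genes). All 5 BH3-only genes had a higher mean in GR KO GC tumors, and the median over the 10 members was 0.27 beside 0.01 over all genes.

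Pmaip1 was at 9.32, 13.0, 10.1, 12.0 and 16.9 CPM in GR KO GC tumors and at 2.45, 3.93, 2.21, 1.82 and 0.912 CPM in parental GC tumors. The groups did not overlap, in 5 of 5 tumors on each side, and it was the only member for which this held, beside 3.84% of all genes. The log2 fold change was 2.43 (SE 0.38, 95% interval 1.69 to 3.18), with an adjusted p of 0.00211 from edgeR and 5.22e-08 from DESeq2. It stayed called in each of the 10 fits that left out 1 tumor (2.24 to 2.72) and without the tumors high in Gm26924 (2.44, adjusted p 0.00512). Since the parental GC group is also 1 arm of the GC effect above, the 2 comparisons share these 5 tumors. Summed neutrophil markers were 97.7, 49.8, 229, 201 and 136 CPM in GR KO GC tumors against 14.6, 10.1, 11.1, 22.6 and 38.8 CPM in parental GC tumors; 0 of the 5 markers were called by edgeR, and their part in the Pmaip1 result was not tested.

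Bcl2l1 was lower in GR KO GC tumors, at 121 ± 20.8 against 194 ± 78.8 CPM, with a log2 fold change of -0.68 (SE 0.23), an unadjusted p of 0.00658 and an edgeR adjusted p of 0.221. Parental GC tumors 2, 4 and 5 lay above all GR KO GC tumors and tumors 1 and 3 within their range, and without parental GC tumor 4 the value was -0.43. Bmf (0.70), Bid (0.54), Bbc3 (0.45), Mcl1 (0.36), Bax (0.19), Bcl2 (0.16), Bcl2l11 (0.08) and Bak1 (-0.03) did not pass the test.

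**Figure D3:**
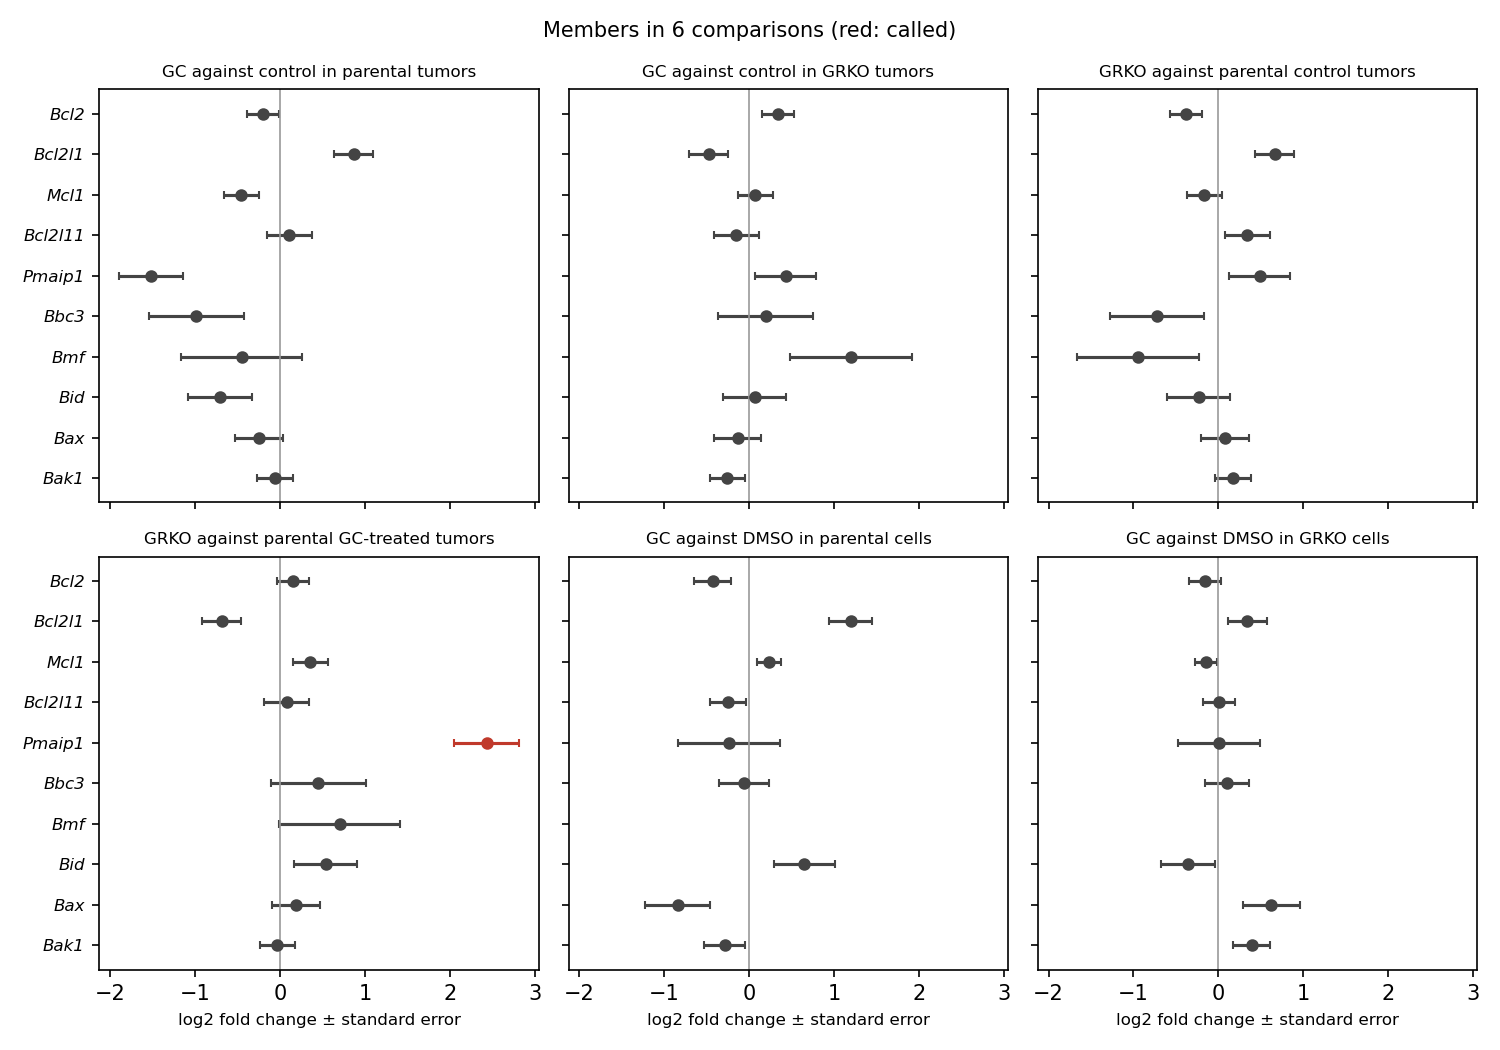
Log2 fold change of each member with its SE in 6 comparisons; red marks a call by edgeR. Pmaip1 in GR KO against parental GC tumors (2.43) is the 1 red point, and Bmf was not tested in cultures.

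In culture only the melanoma cells are present, so GC against DMSO in parental cells addresses their own response. Bcl2l1 was again higher with GC, while Pmaip1 was low in all of these cultures and its GC values lay inside the DMSO range. Of the 9 members tested (Bmf did not pass the filter on low counts) edgeR called 0, beside 0.878% of the 12525 genes tested. It gave 2 members an unadjusted p under 0.05 (8.48% of all genes), and DESeq2 called 1 (2.00% of all genes). The median log2 fold change was -0.24 over members and -0.00 over all genes.

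Bcl2l1 was at 119, 155 and 119 CPM in DMSO cultures 1 to 3 and at 259.8 and 338 CPM in GC cultures 1 and 2. Both GC cultures lay far above the 3 DMSO cultures. The log2 fold change was 1.19 (SE 0.26, 95% interval 0.69 to 1.70), with an adjusted p of 0.0623 from edgeR and 0.00244 from DESeq2. In these libraries summed macrophage markers were at most 4.00 CPM and neutrophil markers at most 0.0904 CPM. With 2 GC cultures, groups without overlap are common, at 27.8% of all genes. The members in that state numbered 6, with Bcl2l1, Mcl1 and Bid higher in GC cultures and Bcl2, Bcl2l11 and Bax lower.

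Bax, an effector, was at 38.2, 95.6 and 32.7 CPM in parental DMSO and at 31.04 and 30.8 CPM in GC cultures. DMSO culture 2 stood far above the rest, and the log2 fold change of -0.84 (SE 0.38, edgeR adjusted p 0.583) became -0.20 without it. Pmaip1 was at 2.54, 1.17 and 0.470 CPM (39, 19 and 8 reads) in DMSO and at 1.17 and 1.18 CPM (17 and 26 reads) in GC cultures. On the log2 scale the change was -0.24 (SE 0.60), and its 95% interval of -1.41 to 0.94 includes sizable shifts either way. Bid (0.65), Mcl1 (0.23), Bbc3 (-0.06), Bcl2l11 (-0.25), Bak1 (-0.29) and Bcl2 (-0.43) had edgeR adjusted p-values of 0.616 or more.

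In GR KO cells GC against DMSO moved no gene past the test. edgeR and DESeq2 each called 0 of 9 members and 0 genes (0%) in all, and 0 members had an unadjusted edgeR p under 0.05, beside 1.89% of all genes. The median was 0.01 over members and 0.02 over all genes. Bcl2l1 was at 118, 99.8 and 149.9 CPM in DMSO and at 107, 155 and 204 CPM in GC cultures, which overlapped (log2 fold change 0.34, SE 0.23, edgeR adjusted p 0.976). Pmaip1 was at 3.43, 5.63 and 3.82 CPM in DMSO and at 6.22, 3.73 and 2.97 CPM in GC cultures, with a log2 fold change of 0.00 (SE 0.49). Bax, at 32.7 ± 7.49 CPM in DMSO and 50.2 ± 2.04 CPM in GC cultures, had the largest value (0.62, SE 0.33, edgeR adjusted p 0.976) and groups without overlap (26.8 to 41.1 against 48.4 to 52.4 CPM), as had 7.55% of all genes. Bak1 (0.39), Bbc3 (0.10), Bcl2l11 (0.01), Mcl1 (-0.14), Bcl2 (-0.16) and Bid (-0.36) were smaller.

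The difference between the GC effects of parental and GR KO cells was called for 0 of 9 members by edgeR, beside 0.295% of all genes, and for 0 by DESeq2, beside 1.02%. Unadjusted p-values under 0.05 were found for 2 members (8.58% of all genes), Bcl2l1 and Bax. Bcl2l1 differed by 0.85 (SE 0.35, 95% interval 0.17 to 1.54, edgeR adjusted p 0.563). Bax differed by -1.46 (SE 0.51, edgeR adjusted p 0.460), and by -0.80 without parental DMSO culture 2. The remaining differences were 1.01 for Bid, 0.37 for Mcl1, -0.16 for Bbc3, -0.24 for Pmaip1, -0.25 for Bcl2l11, -0.27 for Bcl2 and -0.68 for Bak1, with a median of -0.24 over members and -0.03 over all genes.

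GR KO and parental cells in DMSO were compared for differences that the clone carried without GC or host. Pmaip1 was higher in GR KO cells, as it was in GR KO tumors under GC, while Bcl2l1 had 122 ± 25.4 CPM in GR KO and 131 ± 20.8 CPM in parental cells (log2 fold change -0.09, SE 0.23). edgeR called 0 of 9 members, beside 8.22% of all genes, 4 members had an unadjusted p under 0.05 (24.2% of all genes), and DESeq2 called 1 (11.4% of all genes). The median was -0.09 over members and 0.01 over all genes.

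Pmaip1 was at 3.43, 5.63 and 3.82 CPM (66, 118 and 71 reads) in GR KO DMSO cultures and at 2.54, 1.17 and 0.470 CPM in parental ones. The 3 GR KO cultures lay above the 3 parental cultures. Groups were without overlap for 4 of the 9 members, beside 32.6% of all genes. Its log2 fold change was 1.63 (SE 0.52, 95% interval 0.62 to 2.64), with an adjusted p of 0.0754 from edgeR and 0.0204 from DESeq2, and edgeR called it without parental DMSO culture 1 (2.38, adjusted p 0.0268). Without parental DMSO culture 3, the lowest, it was 1.21.

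Bid was also higher in every GR KO culture, at 16.9 ± 2.59 against 9.37 ± 4.22 CPM (log2 fold change 0.85, SE 0.33, edgeR adjusted p 0.136), and Mcl1 by 0.22 (SE 0.13). Both effectors were lower: Bak1 in 3 of 3 cultures, at 79.7 ± 8.04 against 115 ± 33.4 CPM (-0.53, SE 0.22, edgeR adjusted p 0.166), and Bax by a log2 fold change of -0.77 (SE 0.34, edgeR adjusted p 0.188). Parental DMSO culture 2 weighed on all 3, and without it the values were 0.53 for Bid, -0.25 for Bak1 and -0.11 for Bax. As a whole library this culture differed from both others, with a mean chi-square of 65.4 against culture 1 and 77.3 against culture 3. Cultures 1 and 3 had 8.26 between them, the lowest of all 50 pairs within groups. Pairs of GR KO GC cultures had 30.3 to 119. Bcl2 (-0.21), Bbc3 (-0.12) and Bcl2l11 (-0.09) were not called either.

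Tumors were set against cultures of the same line, with all 31 libraries scaled and fitted together, to place the members' levels in tissue beside those in the cells alone. Growth in the mouse, the host cells of the tissue and library preparation cannot be told apart here. In parental tumors 5 of 10 members were called by edgeR, all of them higher than in cultures, beside 46.7% of the 16273 genes tested, and DESeq2 called 6 (48.4%). In GR KO tumors 9 of 10 were called by both tools, 7 higher and 2 lower, beside 54.8% of genes by edgeR and 56.0% by DESeq2. Tumors and cultures did not overlap for 7 members in either line, beside 50.0% of all genes in the parental and 46.3% in the GR KO line. Leukocyte markers rose in the same comparisons, with 6 of 6 macrophage markers, 6 of 6 T cell markers and 5 of 5 neutrophil markers called higher in either line's tumors, and their part in the members' levels was not tested.

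In parental tumors Bcl2 rose from 25.3 ± 2.92 to 58.4 ± 12.3 CPM (log2 fold change 1.20, SE 0.22, edgeR adjusted p 4.01e-05) and Mcl1 from 113 ± 7.22 to 246 ± 40.3 CPM (1.12, SE 0.22, adjusted p 0.000115). Bcl2l1 did not share this, at 105 ± 8.18 CPM in tumors and 133 ± 21.1 CPM in cells (-0.34, SE 0.24, adjusted p 0.248). Bcl2l11 rose from 19.9 ± 1.54 to 55.0 ± 16.3 CPM (1.46, SE 0.29, adjusted p 9.49e-05) and Pmaip1 from 1.42 ± 1.07 to 6.40 ± 2.29 CPM (2.17, SE 0.49, adjusted p 0.000509). Bmf, which had 0, 5 and 6 reads in the cultures, had 28, 45, 28, 62 and 86 reads in the tumors and was called (edgeR adjusted p 0.0102). Bbc3, the PUMA gene, had a lower mean in tumors, with 4.79 ± 1.88 CPM in tumors and 10.6 ± 1.98 CPM in cells (-1.15, SE 0.52, adjusted p 0.0678). It was called by edgeR without control tumor 5 (-1.38, adjusted p 0.0394) and without the tumors high in Gm26924 (-0.96, adjusted p 0.00863), while the other 7 fits that left out 1 library did not call it, among them those without control tumor 1 (-0.94, adjusted p 0.146) and without DMSO culture 1 (-0.99, adjusted p 0.183). Bax (0.22), Bak1 (0.03) and Bid (0.01) were not called. Fits that left out 1 library called 4 to 6 members, and Bmf was not among the 4 called without DMSO culture 1. The members' median was 0.67, beside 0.37 over all genes.

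In GR KO tumors Bcl2 (1.05, SE 0.22, edgeR adjusted p 0.000170) and Mcl1 (0.75, SE 0.22, adjusted p 0.00480) again rose, and Bcl2l1 had 167 ± 41.1 CPM in tumors and 126 ± 25.0 CPM in cells (0.41, SE 0.25, adjusted p 0.153). Bcl2l11 rose from 18.8 ± 1.35 to 69.6 ± 27.0 CPM (1.89, SE 0.29, adjusted p 2.47e-06). Bmf had 0, 1 and 0 reads in the cultures and 1, 20, 27, 67 and 7 in the tumors (edgeR adjusted p 0.000611). Bbc3 fell from 9.89 ± 2.52 to 2.97 ± 2.21 CPM (-1.73, SE 0.52, adjusted p 0.00591), with tumors at 0.292 to 5.35 CPM. The effectors Bax (1.07, SE 0.34, adjusted p 0.00844) and Bak1 (0.74, SE 0.23, adjusted p 0.00872) rose. The members' median was 0.90, also with Bmf at the bound that the floor sets, beside 0.33 over all genes.

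Several of these GR KO calls were lost when 1 library was left out, and 6 members were called with the 2 compared groups alone. Pmaip1 (1.05, SE 0.45, edgeR adjusted p 0.0489) lost its call without GR KO control tumor 1 (0.99), 2 (1.05) or 4 (0.84) and without DMSO culture 1 (0.92), 2 (1.27) or 3 (0.97). It also lost it without a filter on low counts (1.01, adjusted p 0.0832) and with these groups alone (1.06, adjusted p 0.0744). Bid fell (-1.05, SE 0.40, adjusted p 0.0241), and its call was lost without control tumor 1 (-0.84), control tumor 2 (-0.97) or DMSO culture 2 (-0.95). Without DMSO culture 2, Bax (0.93) and Bak1 (0.64) were not called either, and Mcl1 dropped below the minimum fold change without control tumor 4 (0.54). Without the tumors high in Gm26924, 6 members were called, and Bax (0.61, edgeR adjusted p 0.339), Bbc3 (-0.94, adjusted p 0.115) and Bid (-0.20, adjusted p 0.796) were not among them. Those called were Bmf, Pmaip1 (1.57, adjusted p 0.0498), Bcl2 (1.48), Mcl1 (1.27), Bak1 (0.93) and Bcl2l11, whose value dropped from 1.89 to 0.91 (adjusted p 0.0448).

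The wider family, a list of 16 further genes of which 13 were tested in tumors and 7 in cultures, added 2 calls to the comparisons within tumors and within cultures. Both fell with GC in GR KO tumors, where 6.42% of all genes were called. Bcl2l14 had a log2 fold change of -2.53 (SE 0.59, edgeR adjusted p 0.0155), from 9.15 to 1.58 CPM. Bnip3, a mitophagy receptor induced by hypoxia, had -0.73 (SE 0.20, edgeR adjusted p 0.0319), from 280.0 to 169 CPM. The list's median was -0.32 in GR KO tumors with GC and -0.45 in parental tumors with GC. Against cultures 6 genes rose and 1 fell in parental tumors (46.7% of all genes called), and 6 rose and 2 fell in GR KO tumors (54.8%). Bcl2a1a, a pro-survival gene of leukocytes, was at least 111-fold higher in parental and at least 162-fold higher in GR KO tumors against the floor of 3 counts per library, Bcl2a1b at least 19.5-fold and 15.7-fold (2.53 ± 3.81 CPM in GR KO tumors), Bcl2l14 at least 17.8-fold in parental and Bcl2l15 at least 28.3-fold in GR KO tumors; the Bcl2a1 copies are near identical and may share reads. Bad, a BH3-only gene controlled by phosphorylation, fell in parental (-1.37) and GR KO tumors (-0.90), and Bcl2l2, which encodes the pro-survival BCL-W, fell in GR KO tumors (-1.48).

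Downstream and upstream of the family, 27 death receptor, apoptosome and caspase genes were followed, all tested in tumors and 25 in cultures. With GC in GR KO tumors Aifm1, a mitochondrial flavoprotein, rose (1.37, edgeR adjusted p 0.0416) and Vdac2, a mitochondrial channel that holds BAK, fell (-0.86, adjusted p 0.0165). In GR KO against parental DMSO cells the executioner caspase gene Casp6 was lower (-0.81, adjusted p 0.0313). The other 7 comparisons within tumors or within cultures had 0 calls by edgeR. Against cultures 8 genes rose and 6 fell in parental tumors, where 46.7% of all genes were called, led by Tnfsf10, the TRAIL gene (at least 20.7-fold), Fasl (at least 6.74-fold) and Birc3 (4.18 on the log2 scale) upward, with Aifm1 (-1.85) and the TRAIL receptor gene Tnfrsf10b (-1.78) among those that fell. In GR KO tumors 11 rose and 6 fell (54.8% of all genes called), with Tnfsf10 at least 42.6-fold higher (6.85 ± 5.00 CPM in tumors), Fasl at 1.07 ± 1.73 CPM with an SD above its mean, Birc3 at 3.48, and Tnfrsf10b (-3.17), Aifm1 (-3.04) and Htra2 (-2.56) lower.

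Of 14 known regulators of BH3-only genes, 3 fell with GC in GR KO tumors, where 6.42% of all genes were called: Ddit3, the stress factor CHOP (-1.13), E2f1 (-0.98) and the p53 target Cdkn1a (-0.88). In GR KO against parental control tumors (2.25% of all genes called) Ddit3 (1.28) and Cdkn1a (1.03) were higher. The other 7 comparisons within tumors or within cultures had 0 calls by edgeR, among them GC against control in parental tumors. Against cultures 3 genes rose and 7 fell in parental tumors (46.7% of all genes called), with the transcription factors Foxo1 (1.65) and Foxo3 (0.79) and Phlda3 (0.59) upward and Sesn2 (-1.95), Cdkn1a (-1.84) and Ccng1 (-1.54) downward. In GR KO tumors 5 rose and 6 fell (54.8% of all genes called), with Foxo1 (2.05), Foxo3 (1.28) and Phlda3 (1.01) upward and Myc (-2.88), Trp53 (-1.86) and Ccng1 (-1.66) downward.

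For reference, 6 genes known to be induced by GC were followed beside the members. In parental tumors 4 of 6 rose, led by Tsc22d3 (log2 fold change 2.34), Per1 (2.19) and Mt2 (1.73), and in GR KO tumors 4 of 6 rose as well, led by Fkbp5 (2.03), Tsc22d3 (1.77) and Per1 (1.29). In parental cells 5 of 5 tested rose, led by Mt2 (3.76), Tsc22d3 (3.09) and Per1 (2.77), and in GR KO cells 0 of 5 were called by edgeR. Over all genes edgeR called 0.779% in parental tumors, 6.42% in GR KO tumors, 0.878% in parental cells and 0% in GR KO cells. The difference between the lines was called for 4 of 5 in cells, led by Mt2 (3.70), Tsc22d3 (3.14) and Per1 (3.00), and for 0 of 6 in tumors. Per1 (-1.24) and Mt2 (-1.04) were lower in GR KO than in parental GC tumors, control tumors of the GR KO line had less Fkbp5 (-1.50) than parental ones, and Mt2 (0.74) was higher in GR KO than in parental DMSO cells. Against cultures 4 of the 6 were higher in parental tumors, led by Zbtb16 (at least 9.24-fold), Tsc22d3 (2.37) and Per1 (1.76), and 3 in GR KO tumors, Zbtb16 (at least 10.5-fold, 1.70 ± 1.92 CPM in tumors), Tsc22d3 (1.85) and Per1 (1.26).

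Markers of other cell types were followed in the same fits. With GC in GR KO tumors, where 6.42% of all genes were called, 3 of 4 fibroblast markers rose (Pdgfra 1.17, Col3a1 1.03, Col1a1 0.64). Of 4 keratinocyte markers 2 rose and 1 fell (Krt10 2.13, Krt1 1.85, Krt14 -1.42). There 1 marker each of T cells (Cd3d -1.26), endothelium (Kdr -1.32) and striated muscle (Myh4 -1.33) also fell. In GR KO against parental control tumors Kdr was higher (0.98) and Col3a1 (-0.997) and Krt1 (-1.21) were lower. In GR KO against parental DMSO cells Col1a1 (-4.30) and Col3a1 (-1.37) were lower, as was Dcn, with 0 reads in GR KO and 1.45 ± 0.487 CPM in parental cultures, and so was Mitf (-1.36). The pan-leukocyte marker Ptprc, the 6 macrophage markers and the 1 B cell marker tested were called in none of the 5 tumor comparisons by edgeR. Against cultures the markers of all 10 lists were higher in tumors where called, including 5 of 5 tested melanocyte lineage markers in parental and 4 of 5 in GR KO tumors.

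Across the 20 tumors, the genes most like a member in pattern were named by Pearson correlation of log2(CPM + 1) among 10219 genes. They were Egr1 (0.86), Specc1 (0.82) and Pbdc1 (0.81) for Pmaip1, Brd9, Ddah1 and Rabepk (0.89 each) for Bcl2l1, and Egr2 (0.89), Cnot11 (0.87) and Msl1 (0.85) for Bid. These values are descriptions over tumors that share groups and tissue composition. In RefSeq's promoter sequences for GRCm38.p6, 16 windows of 300 bases around transcription starts belonged to the 9 members other than Pmaip1. TGTTCT, the core of the GR response element, was searched on both strands and occurred in 0 of the 16 and in 19.0% of all 32851 such windows, which says only that these letters are not in these windows.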

How the data were processed

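RNA from 20 tumors and 11 cultures was sequenced from transcript 3′ ends (QuantSeq). The read counts per gene deposited by the authors were whole numbers from featureCounts with the Ensembl 75 annotation of GRCm38, after adapter trimming (Trim Galore 0.6.5) and alignment to that build (STAR 2.6.1d, default parameters); the featureCounts version and the strand setting were not given in the sources used here, and the submitters' processing notes also list edgeR, DESeq2 and mm10. From these counts, edgeR 4.0.16 in R 4.3.3 gave TMM-scaled CPM and quasi-likelihood tests, fitted over 20 tumors, over 11 cultures or, for tumors against cultures, over all 31 libraries. Genes needed at least 0.5 CPM in at least 3 samples of the fit. Benjamini-Hochberg adjustment ran over all genes kept, and a call needed an adjusted p under 0.05 and a fold change of at least 1.5. Standard errors were the size of the log2 fold change divided by the square root of edgeR's F statistic. The scripts were tested on simulated data drawn with edgeR's estimates of level and spread. There 6 of 137 edgeR calls and 19 of 160 DESeq2 calls were false for GC in parental tumors. For GC in parental cells 11 of 153 and 35 of 192 were false.

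All 10 members were named in every comparison; from the lists of further family genes, death receptor, apoptosome and caspase genes, regulators of BH3-only genes, genes induced by GC and cell type markers, at most 3 called genes a direction were named, those with the largest change, and some genes that met this are not reported here. For the 3 members with the smallest adjusted p in comparisons within tumors or within cultures, the 3 genes of at least 5 CPM with the highest correlation over tumors were named. Members and lists were chosen with earlier results of these data known. Alternatives were DESeq2 1.42.0, its size factors within edgeR, no filter beyond a total above 0, at least 10 counts in every sample, no minimum fold change, leaving out each library, the replicate number as a block and the compared groups alone. Leaving out tumors with at least 5% of reads on Gm26924 was added after seeing the data.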

Additional observations from a re-analysis of the deposited data

Results flagged for a closer look

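In 4 of the 40 groups of 5 tumors examined (10 members in 4 groups), 1 tumor stood far from the other 4, and chance flags about 1 in 20 groups. Bcl2 was at 37.55 CPM in GR KO GC tumor 4, below the 59.3 to 63.9 CPM of the other GC tumors of that line. Bak1 was at 89.24 CPM in GR KO control tumor 3, below the 139 to 157 CPM of the others. Bbc3 was at 2.917 CPM in parental GC tumor 3, above 2.28 to 2.40 CPM, a narrow range in which a small step stands out. Bmf was at 6.221 CPM in GR KO GC tumor 5, above 1.80 to 2.21 CPM. None of these members was called by edgeR in a comparison among tumors, where unadjusted p-values under 0.05 were found for none of them and DESeq2 called 0 of them.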

How the results depend on the processing

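The call of Pmaip1 in GR KO against parental GC tumors held under all 8 alternatives, with log2 fold changes of 2.43 to 2.46 (adjusted p 5.22e-08 to 0.00751). Of the members' log2 fold changes with an unadjusted p under 0.05, those run under the alternatives kept their direction; Bmf in tumors against cultures was not run under all. Without the tumors high in Gm26924 weaker ones did turn, such as Pmaip1 with GC in GR KO tumors (0.43 to -0.08). In parental tumors the 0 members called by edgeR (3 at an unadjusted p under 0.05) became 2 with DESeq2 and 1 with at least 10 counts in every sample, and 0 to 1 when a library was left out. For the difference of the GC effects between tumor lines, 0 (2 at an unadjusted p under 0.05) became 2 with DESeq2 and 0 to 2 when a library was left out. GR KO against parental control tumors gave 0 to 1, parental cells with GC 1 with DESeq2, 1 without a filter and 0 to 0 when a library was left out, and GR KO against parental DMSO cells 1 with DESeq2, 1 without a filter and 0 to 1. Parental tumors against cultures went from 5 members to 3 with at least 10 counts in every sample and GR KO tumors against cultures from 9 to between 5 and 9 when a library was left out. Fewer genes were tested with at least 10 counts in every sample; for the other shifts the cause was not tested.

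With the replicate number as a block, 1 member was called in GR KO against parental GC tumors and 0 in the other 8 comparisons, so the block changed no call of a member. Same-numbered samples did not vary together on average. The mean correlation of deviations was 0.0583 (-0.543 to 0.415) over 30 pairs of tumors and 0.0198 (-0.552 to 0.620) over 15 pairs of cultures. Single pairs ranged widely and deviations were taken within small groups, so this cannot settle whether the numbers pair samples. With the block, all-gene counts moved from 31 to 144 for the difference between tumor lines, from 101 to 160 for GC tumors of both lines and from 110 to 63 in parental cells.

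Counts of all genes called moved by over 1.5 times elsewhere too. DESeq2 gave 376 against 124 genes in parental tumors, 1756 against 1022 in GR KO tumors, 784 against 31 for their difference, 1001 against 358 for control tumors, 293 against 101 for GC tumors, 251 against 110 in parental cells and 128 against 37 for the difference between cells. With the compared groups alone the counts were 391 in GR KO tumors, 159 in control tumors and 59 in parental cells. Without a filter the differences had 49 genes in tumors and 64 in cells. With at least 10 counts in every sample there were 66 for the difference in tumors, 661 against 1030 in DMSO cells, 4431 against 7595 and 5081 against 8917 in tumors against cultures. Without the tumors high in Gm26924 there were 29 in GR KO tumors, 0 for the difference (31 before; DESeq2 784), 0 for control tumors (358 before; DESeq2 1001) and 170 for GC tumors. Leaving out single libraries gave 60 to 178 genes in parental tumors, 303 to 2411 in GR KO tumors, 0 to 1284 for their difference, 61 to 1762 for control tumors, 40 to 114 for GC tumors, 31 to 78 in parental cells, 17 to 43 for the difference in cells and 594 to 916 in DMSO cells. Depth limits Bmf above all, with 0 to 10 reads in each culture.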
